A study of Arabidopsis thaliana with 6 samples.

Results

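Pathogenesis-related (PR) and defensin genes of Arabidopsis thaliana were followed through an RNA immunoprecipitation sequencing (RIP-seq) experiment, in which RNA crosslinked to a protein is recovered with it and sequenced. The genes, picked by their identifiers, were PR1, PR2, PR4, PR5, the basic chitinase gene CHI-B and the plant defensin genes PDF1.1 and PDF1.2a, and all 7 were found among the 33331 genes listed. The tagged protein was AtGRP7, a glycine-rich RNA-binding protein controlled by the circadian clock. AtGRP7-GFP was driven by the AtGRP7 promoter in plants carrying the grp7-1 mutation, so all 6 libraries came from the same genotype, and the fusion was present only where that promoter is active. Aerial tissue was taken from plants raised for 16 days in 12 h of light and 12 h of dark and then kept in continuous light (LL), and it was fixed with formaldehyde at LL36 (36 h, subjective evening) or LL24 (24 h, subjective morning). Each time point had 3 biological replicates. The comparison asked whether the RNA recovered with AtGRP7-GFP differs between LL36 and LL24. Subjective time of day and hours spent in continuous light changed together, so they cannot be told apart. No input, mock precipitation or wild-type RNA was analysed here, so the amount of a transcript in the tissue and its recovery by the protein cannot be told apart, nor can fewer expressing cells from less RNA per cell.

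Defence genes of this kind are the classical readout of plant immune signalling. PR1, PR2 and PR5 respond to salicylic acid, the hormone of resistance against biotrophic pathogens, through the NPR1 co-activator and TGA transcription factors. PDF1.2a, PR4 and CHI-B respond to jasmonate and ethylene, the hormones of resistance against necrotrophs and of the wound response. PR1 encodes a secreted protein of the CAP superfamily, PR2 a β-1,3-glucanase, PR5 a thaumatin-like protein, PR4 a hevein-like chitin-binding protein and CHI-B a basic chitinase, while the PDF genes encode small cysteine-rich antifungal peptides. Earlier work by the authors had placed PR1 among transcripts that AtGRP7 affects without binding them. In the same work the PDF1.2 transcript was bound by AtGRP7 and negatively affected by it. The study found PR4 as a target only by iCLIP, a method based on UV crosslinking, and not by RIP-seq. In RIP followed by quantitative PCR, PR4 was enriched with beads that capture GFP and not with beads that capture RFP.

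The 7 genes are all protein-coding in TAIR10.1. PR1 (AT2G14610) is a single-exon gene (chromosome 2, minus strand, 6241640 to 6242541). PR2 (AT3G57260, listed as BGL2) has 2 exons (chromosome 3, minus strand, 21188397 to 21189967) and lies between its relatives BG3 (21181642 to 21183144) and BG1 (21191237 to 21193189). PR5 (AT1G75040) has 2 exons (chromosome 1, plus strand, 28177670 to 28179022) and lies next to its relative TLP-3. PR4 (AT3G04720) has 2 exons (chromosome 3, minus strand, 1285425 to 1286760). CHI-B (AT3G12500, listed as HCHIB) has 2 exons (chromosome 3, minus strand, 3962136 to 3963984) and overlaps AT3G12502, which holds 27.9% of its 100-nt stretches, so that its value is uncertain. PDF1.2a (AT5G44420) has 2 exons (chromosome 5, minus strand, 17906968 to 17907638), and its close copy PDF1.2c (AT5G44430) lies beside it at 17908850 to 17909507. PDF1.1 (AT1G75830, listed as LCR67) has 2 exons (chromosome 1, plus strand, 28472357 to 28472898). Another tandem pair of defensins, PDF1.3 (AT2G26010, 11087280 to 11088001) and PDF1.2b (AT2G26020, 11089123 to 11089805), lies on the plus strand of chromosome 2.

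The defensin copies are alike enough that the identity of their reads has to be considered. Over the 243 nt of coding sequence, PDF1.2a was identical to PDF1.2b at 93.8% of positions, to PDF1.2c at 93.4%, to PDF1.3 at 91.4% and to PDF1.1 at 87.7%. No 100-nt stretch, the length of the reads, of any of these 5 transcripts occurs in another annotated transcript. Of 50-nt stretches, 0.566% of those of PDF1.2a are shared with PDF1.2c, and 5% of those of PDF1.2b are shared with PDF1.3. A 30-nt window of the first coding exon is shown, 5′ to 3′ on the coding strand, because no other window of this length within 1 exon holds more differences of PDF1.2b, PDF1.2c and PDF1.3 from PDF1.2a. It covers coding positions 6 to 35, and capitals mark bases that differ from PDF1.2a.
PDF1.2a: taagtttgcttccatcatcacccttatctt
PDF1.2b: taagtttgcttccatcatcaccTttatctA
PDF1.2c: taagtCtgctAccatcatcaccTtCCtTtt
PDF1.3: taagtCtgctGccatcatcacTTtCCtctt
PDF1.1: taagtCtgctAccatcGtTacTcttTtctt
In TAIR10.1 these windows lie at chr5:17907516-17907545 (minus strand), chr2:11089286-11089315 (plus), chr5:17909410-17909439 (minus), chr2:11087416-11087445 (plus) and chr1:28472410-28472439 (plus), in the order shown. PDF1.2b differed from PDF1.2a at 2 of the 30 bases, and each of the other 3 copies at 6.

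Values were deposited as TPM, an abundance per 1000000 transcripts in which length is accounted for and read depth is lost, so no counting error can be given and the spread of 3 libraries is the only measure of precision. The listed TPM summed to 9.59% to 14.7% of 1000000 at LL36 and to 13.5% to 16.6% at LL24, because RNA that is not listed took the rest. Values below are scaled TPM, meaning that each library was rescaled to a sum of 1000000 and divided by a trimmed-mean factor of 0.808 to 1.22. LL36 replicate 3 had the lowest sum and the lowest factor. The locus AT2G01021 alone accounted for 63.5% to 69.8% of the listed TPM at LL36 and 64.8% to 67.3% at LL24, and the 10 most abundant genes for 80.9% to 85.1% at LL36 and 78.2% to 83.3% at LL24. AtGRP7 itself, whose reads include those of the transgene, had 1779 ± 183.1 scaled TPM at LL36 and 22.9 ± 3.07 at LL24 (SD, n = 3 each). Markers of the labelled aerial tissue were abundant, the photosynthetic genes CAB1, RBCS1A and RCA covering 288.5 to 15650 scaled TPM. Of 5 root markers, NRT2.1, EXPA7 and COBL9 were listed at 0 in all 6 libraries, BGLU21 reached 0.0320 and PYK10 had 7.63 to 9.19 scaled TPM at LL36 and 10.11 to 13.4 at LL24. The part of root tissue in the results was not tested.

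The defence transcripts spanned a wide range of RIP-seq signal. PDF1.2a had the highest level of the 7 in each of the 6 libraries and PR4 the second highest, with means over all libraries of 38.5 and 9.32 scaled TPM. PR1, PR2 and PR5 followed with 1.37, 1.29 and 1.14 scaled TPM, and their order changed from library to library. CHI-B (0.311) and PDF1.1 (0.177) were lowest. Of the summed TPM of the 7 genes, PDF1.2a took 74.4% ± 4.18 at LL36 and 70.4% ± 4.67 at LL24, and PR4 took 17.9% ± 3.67 at LL36 and 20% ± 4.30 at LL24 (SD, n = 3 each). The sum was 57.4, 60.6 and 74.9 per 1000000 listed TPM at LL36, against 42.1, 40.7 and 28.5 at LL24. Evening and morning libraries were apart, with means of 64.3 ± 9.35 at LL36 and 37.1 ± 7.46 at LL24 (SD, n = 3 each). A two-sided exact permutation test gave p = 0.1, the smallest value that 3 libraries against 3 allow. With the 10 most abundant genes left out of the denominator, the means were 381.7 ± 106.8 at LL36 and 197.3 ± 44.9 at LL24.

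**Figure D1:**
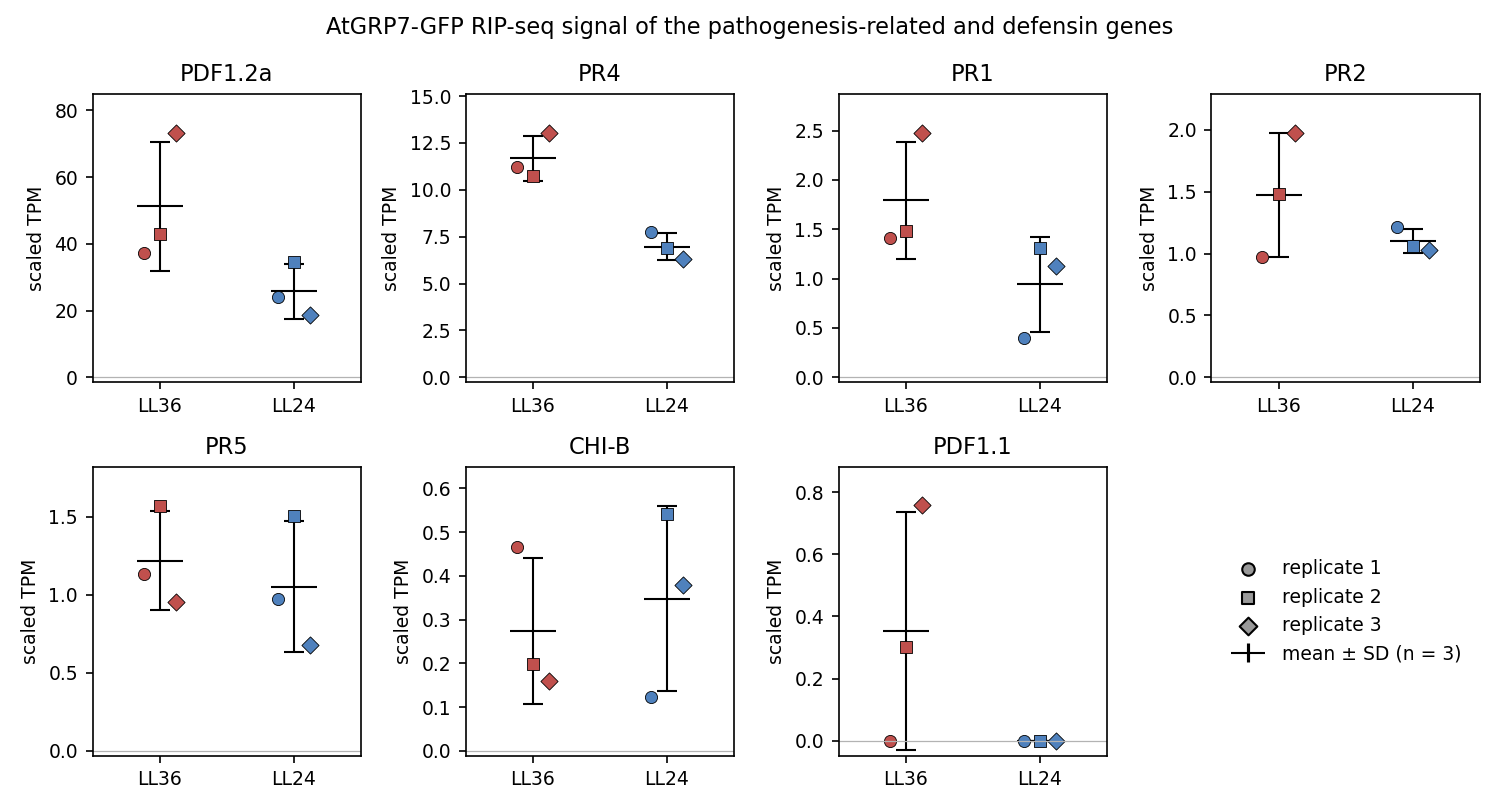
Scaled TPM (linear axes, 1 panel for each of the 7 genes, ordered by mean level) in the 3 LL36 libraries (left, red) and the 3 LL24 libraries (right, blue), with mean and SD as black bars. The LL36 libraries lie above the LL24 libraries for PDF1.2a, PR4 and PR1 and overlap with them for PR2, PR5, CHI-B and PDF1.1.

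PR4 was higher at LL36 on scaled TPM. It had 11.2, 10.7 and 13.1 scaled TPM at LL36, against 7.74, 6.90 and 6.28 at LL24. The lowest evening library thus lay above the highest morning library. The means were 11.7 ± 1.22 at LL36 and 6.97 ± 0.730 at LL24 (SD, n = 3 each), a ratio of 1.68. On the log2(scaled TPM + 1) scale, which understates the change of low genes, PR4 differed by 0.67 (SE 0.12, 95% interval 0.39 to 0.95, adjusted p = 0.00903 by limma with Benjamini-Hochberg adjustment over the 13054 genes with a mean of 0.5 or more). At an adjusted p under 0.05, limma called 2452 of these genes (18.8%), 952 of them higher at LL36 (7.29%) and 1500 lower (11.5%). When only genes with a mean of 5 or more were tested, a level that PR4 reached, 1358 of 3734 (36.4%) were called. In the main test PR4 was the 1 member called of the 5 tested, beside the 18.8% of all genes tested. The call was kept when any 1 library was left out (adjusted p = 0.018 to 0.0402). With the TPM as deposited, where PR4 lies near the 1 that is added before taking logs and 4666 genes were tested, the log2 difference was 0.21 (adjusted p = 0.677) and LL36 replicate 3, at 1.01 TPM, fell among the LL24 libraries (1.28, 0.832 and 1.06 TPM), and after rescaling without a factor it was 0.58 (adjusted p = 0.154).

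PDF1.2a, the standard marker of the combined jasmonate and ethylene response, had the largest log2 difference of the 5 members tested on scaled TPM and missed the threshold. Its values were 37.3, 43.1 and 73.3 scaled TPM at LL36, against 23.96, 34.7 and 18.5 at LL24. Each LL36 library lay above each LL24 library, and LL36 replicate 3 stood well above the other evening libraries. The means were 51.2 ± 19.4 at LL36 and 25.7 ± 8.20 at LL24 (SD, n = 3 each), a ratio of 1.99. The log2 difference was 0.95 (SE 0.30, 95% interval 0.25 to 1.65, unadjusted p = 0.0151, adjusted p = 0.0684 by limma). Over 17 processing alternatives its difference stayed above 0, from 0.51 with the TPM as deposited to 1.17 without LL24 replicate 2. It was called in 2 of them, when only genes with a mean of 5 or more were tested (adjusted p = 0.0474) and after rescaling without a factor (0.0477). Without LL36 replicate 3 the difference was 0.67 (adjusted p = 0.152).

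PR1 had 1.41, 1.49 and 2.48 scaled TPM at LL36, against 0.394, 1.31 and 1.125 at LL24. The time points did not overlap, although LL36 replicate 1 and LL24 replicate 2 were close. The means were 1.79 ± 0.596 at LL36 and 0.942 ± 0.483 at LL24 (SD, n = 3 each), a ratio of 1.90. The log2 difference of 0.54 (SE 0.23, 95% interval -0.003 to 1.08) did not pass the test (adjusted p = 0.158 by limma). LL24 replicate 1 was the lowest library, and without it the difference was 0.30 (adjusted p = 0.36). At this low level the 1 added before taking logs shrinks the difference. With 0.1 added instead, it was 0.95 (adjusted p = 0.165 by limma), beside 0.74 for PR4 and 0.98 for PDF1.2a. PR1, PR4 and PDF1.2a were the 3 of the 7 genes whose libraries did not overlap, each higher at LL36. All 3 were among the 5 members tested, and this pattern held for 15.7% of all genes tested (the reverse held for 21.9%). For PR1 and PDF1.2a this separation was seen under all 5 scalings tried, and for PR4 under 4 of them. The margin of PR1 was small. As deposited, its lowest LL36 library had 0.192 TPM and its highest LL24 library 0.190 TPM.

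The other 2 markers of salicylic acid signalling gave no detectable difference. PR2 had 0.971, 1.48 and 1.98 scaled TPM at LL36, against 1.21, 1.06 and 1.03 at LL24, and LL36 replicate 1 was below all 3 morning libraries. Its log2 difference was 0.22 (95% interval -0.16 to 0.60, adjusted p = 0.408 by limma), and 0.075 without LL36 replicate 3. PR5 had 1.13, 1.57 and 0.956 scaled TPM at LL36, against 0.971, 1.51 and 0.679 at LL24, so that both time points covered nearly the same range. Its log2 difference was 0.12 (95% interval -0.30 to 0.54, adjusted p = 0.684 by limma), and -0.027 without LL24 replicate 3. These intervals leave room for a difference of -0.16 to 0.60 for PR2 and -0.30 to 0.54 for PR5. They are on the log2(scaled TPM + 1) scale, which understates changes at these low levels.

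CHI-B and PDF1.1 lay under the mean of 0.5 that was required for the test. CHI-B had 0.466, 0.198 and 0.159 scaled TPM at LL36, against 0.123, 0.542 and 0.379 at LL24, with the highest and the lowest library both at LL24. PDF1.1, a defensin known mainly from seeds, had 0.303 and 0.759 scaled TPM in LL36 replicates 2 and 3 and was listed at 0 in LL36 replicate 1 and in all 3 LL24 libraries, which permits no fold. When every gene above 0 was tested, limma called neither CHI-B (log2 difference -0.08, adjusted p = 0.795) nor PDF1.1 (0.40, adjusted p = 0.255).

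**Figure D2:**
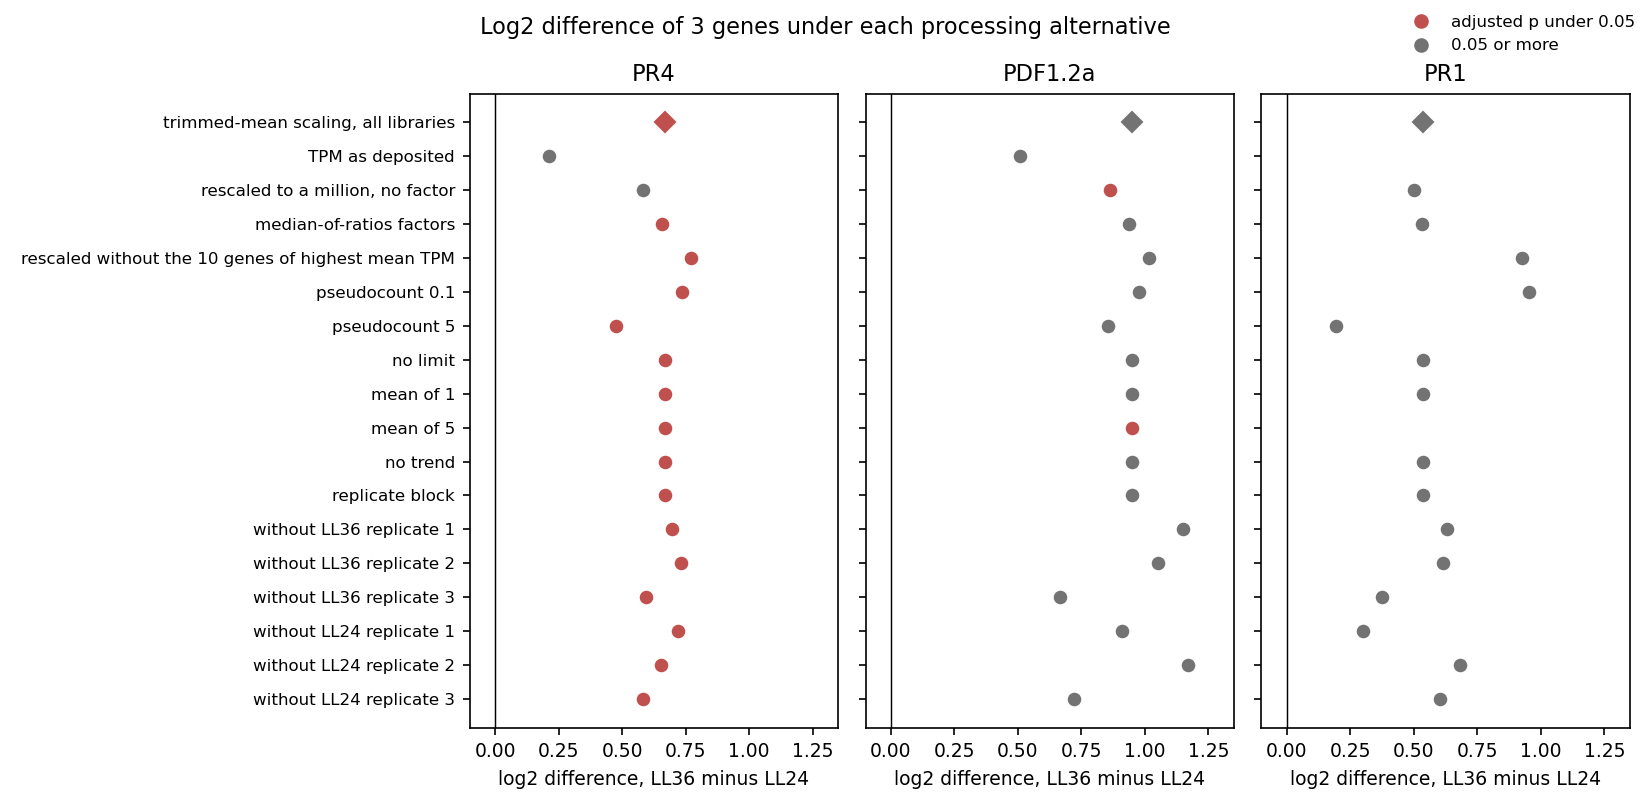
Log2 difference of (value + pseudocount), LL36 minus LL24 (x axis), for PR4, PDF1.2a and PR1 under the setting of the text (diamonds) and 17 alternatives (circles), in red where the limma adjusted p was under 0.05. All values lie above 0, PR4 is called in 15 alternatives and PDF1.2a in 2, and PR1 in none of the 15 that tested it.

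The 3 close copies of PDF1.2a carried the same direction. PDF1.2b had 21.3, 37.3 and 37.6 scaled TPM at LL36, against 5.84, 5.02 and 7.24 at LL24. The evening libraries were well clear of the morning ones, and the log2 difference was 2.201 (SE 0.24, adjusted p = 0.000843 by limma), kept under all 17 alternatives. PDF1.2c had 15.4, 15.8 and 36.8 scaled TPM at LL36, against 8.20, 8.30 and 8.13 at LL24. limma called it higher at LL36 (difference of 1.24 on the log2 scale, SE 0.31, adjusted p = 0.0313), but not when any 1 LL24 library was left out (adjusted p = 0.0804 to 0.0923), when all genes above 0 were tested (0.0559) or with the TPM as deposited (0.0967). Without LL36 replicate 3 the difference was 0.85 (adjusted p = 0.00445). PDF1.3, which is named because it completes the group and was chosen after its values were seen, had 9.23, 8.20 and 21.4 scaled TPM at LL36, against 2.84, 6.35 and 5.42 at LL24, a log2 difference of 1.18 that was not called (adjusted p = 0.0729 by limma) except after rescaling without a factor (0.0245). On scaled TPM, LL36 replicate 3 was the highest library for PDF1.2a, PDF1.2c and PDF1.3. As deposited, PDF1.2a was instead highest in LL36 replicate 2 (6.52 TPM, with 5.69 in replicate 3), as was PDF1.2b (5.65 TPM, with 2.92 in replicate 3).

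Adding up the 4 genes, which sets aside how reads were divided among them, gave 83.1, 104.4 and 169.1 scaled TPM at LL36, against 40.9, 54.3 and 39.3 at LL24. The sum did not overlap between the time points and had a ratio of means of 2.65. Within that sum, which does not depend on any scaling between libraries, PDF1.2a took 44.8%, 41.3% and 43.4% at LL36, against 58.7%, 63.8% and 47.1% at LL24. PDF1.2b took 25.6%, 35.8% and 22.2% at LL36, against 14.3%, 9.24% and 18.4% at LL24. The share of PDF1.2a was thus lower and that of PDF1.2b higher in every evening library, each at the smallest possible p of a two-sided exact permutation test (0.1, or 0.2 after adjustment over the 4 shares). The shares of PDF1.2c (18.4% ± 3.33 at LL36 and 18.7% ± 2.95 at LL24) and PDF1.3 (10.5% ± 2.44 at LL36 and 10.8% ± 3.50 at LL24) overlapped (SD, n = 3 each). Unlike the sum, the shares depend on how reads were divided among the copies. They are parts of the same sum, so the changes of PDF1.2a and PDF1.2b are not independent. The sum and the shares were chosen after the values had been seen.

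**Figure D3:**
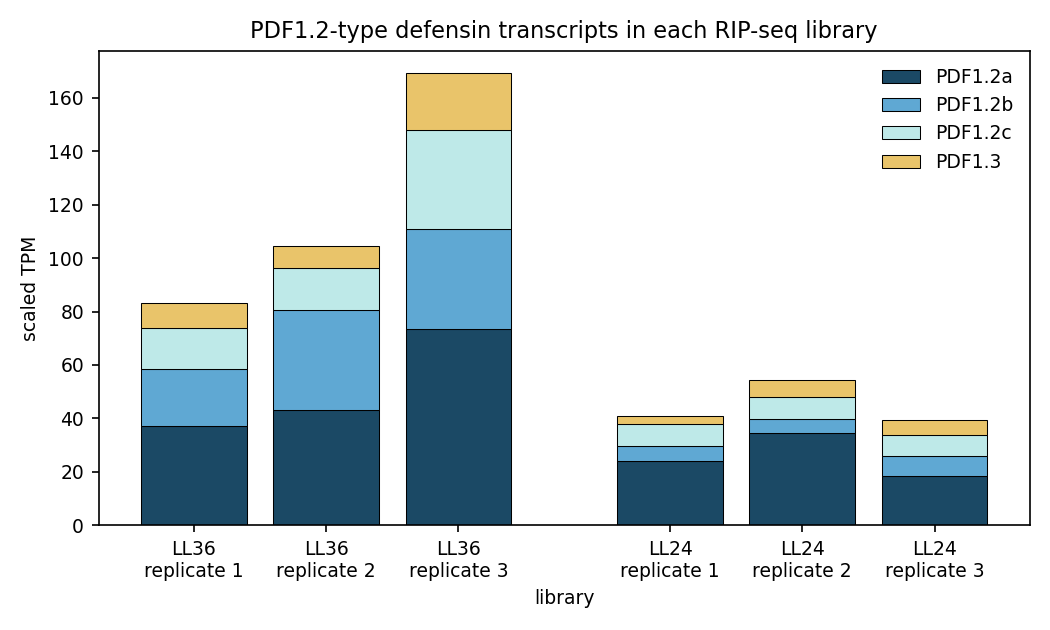
Scaled TPM (y axis, linear) of PDF1.2a, PDF1.2b, PDF1.2c and PDF1.3, stacked for each LL36 library (left) and each LL24 library (right). The sums are 83.1 to 169.1 at LL36 and 39.3 to 54.3 at LL24, and the PDF1.2b segment takes the larger share at LL36.

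Among 21 relatives of the 7 genes, chosen by family, 11 reached the limit, of which 3 rose, 2 fell and 6 were not called. The median log2 difference of these 11 was 0.49, beside -0.03 for all genes tested. It was the value of PDF1.5, which was listed at 0 in LL36 replicate 3 and LL24 replicates 1 and 3 (SE 0.66, adjusted p = 0.658 by limma). PDF1.2b, PDF1.2c and PDF1.3 are close copies, so the 11 are not independent. Of all genes tested, 7.29% were called higher at LL36 and 11.5% lower. After PDF1.2b, the largest increase was that of the defensin PDF2.2 (AT2G02100), with 218, 277 and 244 scaled TPM at LL36, against 72.3, 78.3 and 86.6 at LL24 (log2 difference 1.62, SE 0.12, adjusted p = 0.000182 by limma), a call kept under all 17 alternatives. Of the defensins in these lists, PDF2.2 thus had the highest level at LL36 and PDF2.3 the highest at LL24. PDF2.3, on the same chromosome and named after its values were seen, had 99.6 ± 9.74 scaled TPM at LL36 and 102.4 ± 6.42 at LL24 (SD, n = 3 each), a log2 difference of -0.04 (95% interval -0.30 to 0.21) whose sign turned after rescaling without the 10 most abundant genes (0.001) and without LL36 replicate 1 (0.045). PDF2.1 (538250 to 539123), which lies next to PDF2.3 (539898 to 540707), fell by 0.80 (adjusted p = 0.02 by limma), with 1.195, 1.303 and 1.63 scaled TPM at LL36, against 2.32, 4.15 and 3.06 at LL24. Its call was lost without LL36 replicate 1 (adjusted p = 0.07) or replicate 2 (0.0645). CTL1 (AT1G05850), a chitinase-like protein needed for normal cell walls, fell by 0.48 (adjusted p = 0.0135 by limma), with 23.7, 23.99 and 24.6 scaled TPM at LL36, against 36.6, 33.3 and 32.1 at LL24, and was not called without LL36 replicate 1 (0.0611), with the TPM as deposited (0.127) or after rescaling without a factor (0.176). Without LL36 replicate 1, 3 relatives were called, all higher.

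The nearest relatives of PR1 and PR2 were close to 0. PRB1, a basic PR1-type gene, had 0.284 ± 0.181 scaled TPM at LL36 and 0.213 ± 0.189 at LL24 (SD, n = 3 each). The β-1,3-glucanase genes flanking PR2 were listed at 0 in 5 of the 6 libraries each, BG3 reaching 0.0823 scaled TPM in LL36 replicate 3 and BG1 0.0475 in LL24 replicate 3. Neither gene passed the limit, and limma called neither when every gene above 0 was tested (BG3 0.038, adjusted p = 0.599, and BG1 -0.022, adjusted p = 0.692).

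**Figure D4:**
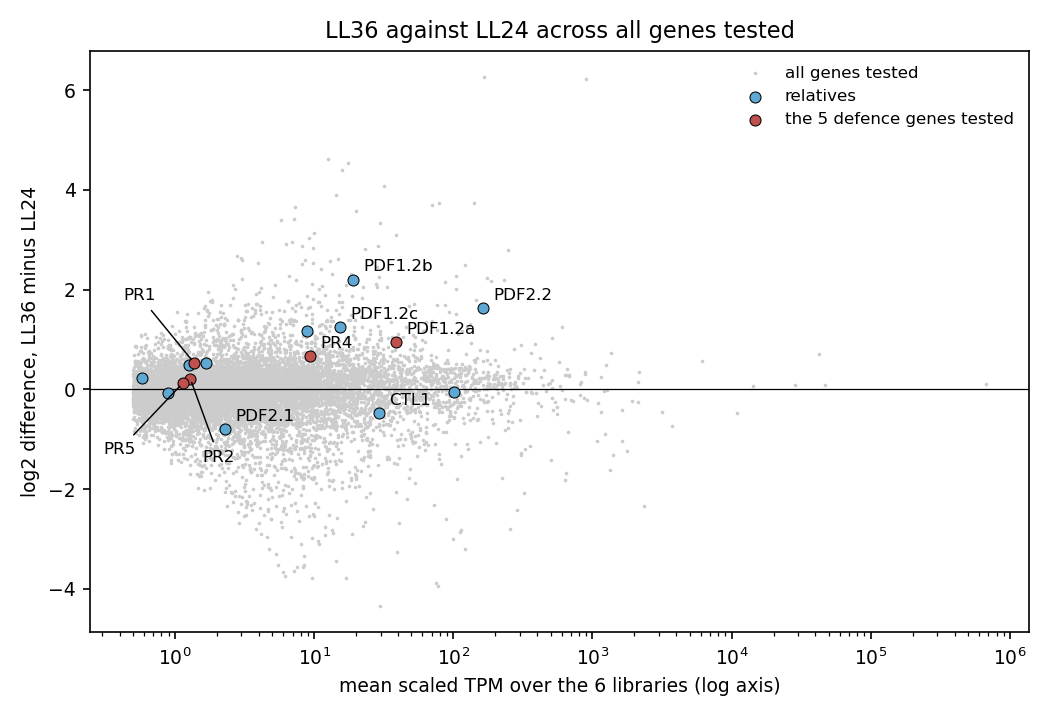
Log2 difference, LL36 minus LL24 (y axis), against mean scaled TPM over the 6 libraries (x axis, log scale) for the 13054 genes tested (grey), with the 5 of the 7 defence genes that passed the limit in red and the 11 relatives that passed in blue. PR4, PDF1.2a and the defensin copies lie above 0 at intermediate and high levels, and PR2 and PR5 lie near 0 at low levels.

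Genes acting upstream of the 7 markers were compared in 2 lists. Their counts stand beside a share of 18.8% called over all genes tested (7.29% higher and 11.5% lower at LL36). Of 23 genes of salicylic acid synthesis and signalling, 16 passed the limit and 1 was called, PAD4, the lipase-like partner of EDS1. PAD4 had 1.25, 1.65 and 1.19 scaled TPM at LL36, against 2.67, 2.15 and 2.05 at LL24, a log2 difference of -0.48 (adjusted p = 0.0415 by limma) that was not called in 10 of 15 alternatives, among them the leaving out of LL36 replicate 1 or 3 or of any LL24 library (adjusted p = 0.0576 to 0.13). The median log2 difference of the 16 was -0.11 and their range -0.69 to 0.48. Of 10 genes of jasmonate and ethylene signalling, 9 passed and 1 was called, COI1, the F-box protein of the jasmonate receptor. COI1 had 1.17, 1.39 and 1.102 scaled TPM at LL36, against 2.18, 2.29 and 2.65 at LL24 (log2 difference -0.60, adjusted p = 0.00989 by limma), and stayed called in 14 of 15 alternatives, with rescaling without a factor as the exception (0.0615). The other 8 were not called, 5 with a positive and 3 with a negative log2 difference. Of all 9, the libraries of 2 were entirely higher and those of 3, COI1 among them, entirely lower at LL36. Over all genes tested, 15.7% were entirely higher and 21.9% entirely lower. MYC2, a transcription factor gene named after its values were seen, had a log2 difference of 0.88 (adjusted p = 0.0912 by limma) and was called without LL36 replicate 2 (1.205, adjusted p = 0.0229). The median of this list was 0.01.

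**Figure D5:**
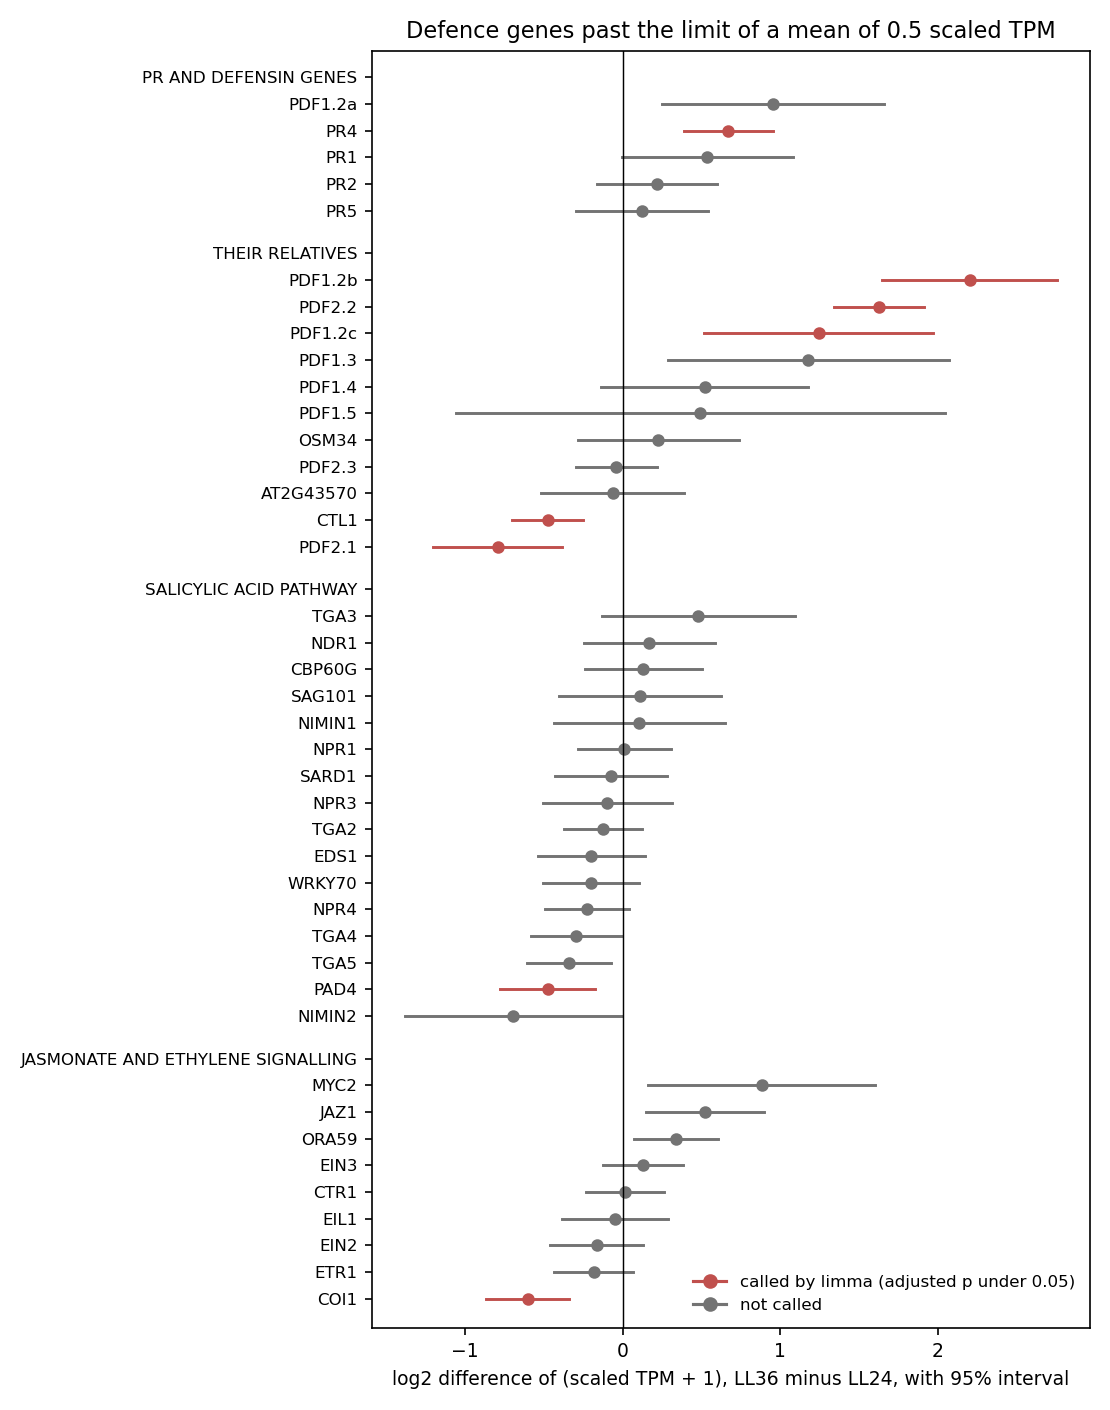
Log2 difference of (scaled TPM + 1), LL36 minus LL24, with unadjusted 95% intervals (x axis), for the genes of the 4 groups that passed the limit of a mean of 0.5 scaled TPM. Genes called by limma are red: PR4 among the 7 defence genes, 5 relatives, PAD4 in the salicylic acid list and COI1 in the jasmonate and ethylene list.

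Across the 6 libraries, the genes whose log2 profiles were most like that of PR4, out of 3733 with a mean of 5 or more, were VPS46.2 (AT1G73030) and AT3G52990, both with a Pearson r of 0.993. For PDF1.2a they were the photosystem I gene PSAF (AT1G31330, r = 0.993) and AT5G52780 (r = 0.99). These values describe likeness over 6 points in 2 groups that share their libraries and scaling, and with this many candidates high values are found for any profile.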

How the data were processed

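Reads were trimmed by the authors with Sickle, mapped with STAR 2.5.2a to the atRTD transcripts (TAIR10) and quantified with Salmon 0.8.2, and tximport gave values per gene. By the authors' account rRNA, mitochondrial and chloroplast genes were excluded. Whether the signal listed for AT2G01021 comes from such RNA was not tested. The RNA was not selected for poly(A), and reads were 100-nt single ends. The sources used here do not give whether strand was used. The deposited values were TPM per gene and library, for which depth is unknown. Another 6 columns that matched no sample were not used, and no 2 libraries held identical values.

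Each library was rescaled to a sum of 1000000, since the listed TPM fell short of it, and divided by an unweighted trimmed-mean factor over genes with a mean of 5 or more (30% of ratios and 5% of abundances trimmed at each end). Genes with a mean of 0.5 or more were tested on log2(scaled TPM + 1) with limma 3.58.1 in R 4.3.3 (eBayes with a trend), two-sided, with Benjamini-Hochberg adjustment at 0.05. The pipeline was tested on simulated data. Changes were set there only in genes above the levels of PR1, PR2 and PR5, so this does not cover such low genes. Single values were compared by exact permutation tests over libraries. Coordinates and sequences came from RefSeq's TAIR10.1, which matched 32811 of 33331 identifiers.

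The text names the 7 members, PRB1, BG1, BG3, PDF1.2b and PDF1.2c, up to 5 called genes of each other list, AtGRP7, and the 2 genes most like each member with a mean of 5 or more. PDF1.3, PDF1.5, PDF2.3, MYC2 and AT2G01021 were named outside this rule, after their values were seen. The members and lists were chosen with earlier results of these data known. The alternatives were other scalings, pseudocounts and limits, no trend, the replicate number as a block, and leaving out each library.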

Additional observations from a re-analysis of the deposited data

How the results depend on the processing

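Of 17 alternatives, 3 moved the number of genes called by more than 1.5 times from 2452: the TPM as deposited (692 of 4666 tested, or 14.8%, with 18.6% higher at LL36 instead of 38.8% and a median log2 difference of all genes of -0.17), rescaling without a factor (1314 of 13132, or 10%) and a limit of a mean of 5 (1358 of 3734, or 36.4%). Leaving out 1 library gave 1650 to 2032 genes (12.7% to 15.7%). Of the 7 defence genes, 1 was called in 15 alternatives, 0 of 2 tested with the TPM as deposited and 2 of 2 tested with a limit of 5. The number was 1 without any 1 library. After rescaling without a factor, the gene called was PDF1.2a in place of PR4. Of the relatives, 2 of 6 tested were called with the TPM as deposited and 3 to 5 without 1 library. In the salicylic acid list, 0 were called with the TPM as deposited, rescaling without a factor, rescaling without the 10 most abundant genes, a pseudocount of 5, no limit, a limit of 5 and the replicate block, and 0 to 1 without 1 library. In the jasmonate and ethylene list the number was 0 with the TPM as deposited, rescaling without a factor and a limit of 5, 2 with the replicate block, and 1 to 2 without 1 library. The TPM as deposited and the limit of 5 also leave fewer genes, 2 and 1 of the salicylic acid list and 3 and 1 of the jasmonate and ethylene list, so that for the TPM as deposited the scale and the genes tested changed together. The cause of the other changes was not tested. The log2 difference of PR5 turned to -0.027 without LL24 replicate 3 (-0.027 to 0.274 without 1 library), and that of PDF2.3 to 0.001 after rescaling without the 10 most abundant genes and to 0.045 without LL36 replicate 1 (-0.102 to 0.045 without 1 library). The difference in summed TPM of the 7 genes was 27.2 per 1000000 listed TPM (21.9 to 30.7 without 1 library), and 184 with the 10 most abundant genes left out of the denominator.

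No pairing of libraries by replicate number was seen, as deviations from the time point means correlated at 0.015, -0.033 and -0.068 for numbers 1 to 3. With 3 libraries at each time point this cannot show that the replicates were unpaired. With the replicate block 1731 genes were called, PAD4 (adjusted p = 0.0942) and CTL1 (0.0525) were not, and MYC2 was (0.0296). TPM holds no depth, so the error of values near 0, as for CHI-B and PDF1.1, is known only from 3 libraries.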
